A study of Mus musculus with 4 samples.

Results

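The genes that encode the phase II conjugation enzymes were followed in 4 lung RNA sequencing libraries. Members were taken from the deposited count table by name, as every gene of the Ugt1a, Ugt2a, Ugt2b and Ugt3a groups of UDP-glucuronosyltransferases (UGT), of the Gsta, Gstm, Gstp, Gstt, Gsto, Gstk, Gstz and Mgst groups of glutathione S-transferases (GST), and of the sulfotransferases (SULT), with pseudogenes left out. The rule used no measured value and gave 69 of the 41079 genes in the table. Of these, 18 had 0 counts in all 4 libraries, 17 had 1 to 9 counts in their highest library, 10 had 10 to 99, and 24 had at least 100.

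There was 1 library for each of 4 groups, WT and Rab44-KO mice kept under normal conditions and WT and Rab44-KO mice made allergic to OVA (OVA-induced). Rab44 encodes a large Rab GTPase, and the knockout was made with CRISPR/Cas9 in C57BL/6 mice, with female littermates matched for age as WT. OVA-induced mice were sensitized with 100 μg ovalbumin (OVA) and alum by intraperitoneal injection on days 0, 7 and 14, then given 100 μg OVA in 50 μL through the nose for 4 days, with lungs taken at day 21. The labels call the normal mice untreated, although the protocol text they carry also mentions a PBS challenge. How many mice went into a library is not named in the sources used here. With 1 library per group, no difference has a replicate check, and each comparison is of 2 libraries rather than of 2 conditions.

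Conjugation enzymes attach a charged group to a drug, a pollutant, a hormone or a reactive product of metabolism, which makes it more soluble and ready for export from the cell. UGTs use UDP-glucuronic acid, GSTs use glutathione and SULTs use the activated sulfate PAPS. In the lung many of these enzymes are known from the secretory cells of the airway, the club cells, and several are classical targets of the aryl hydrocarbon receptor (AhR) and of NRF2, which bind dioxin response elements and antioxidant response elements, respectively.

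Where a pair of values is given for a genotype, the first is from normal and the second from OVA-induced lungs. Total counts ranged from 18112901 to 19910236 per library. Rab44 itself had 251 and 810 counts in WT lungs, and 1 and 0 in Rab44-KO lungs, so both knockout libraries carried their label. Counts were scaled to library size as CPM by edgeR's TMM method, and the log2 fold change (log2FC) of 2 libraries was taken where the higher of them had at least 10 counts. The interval after each log2FC is the exact 95% Clopper-Pearson interval of the count ratio, which covers counting error only. A gene beyond a log2FC of 1 in either direction was counted as over 2-fold. All 6 listed alveolar type 2 markers were detected in every library (summed CPM 18041 to 29840), whereas 8 liver markers summed to only 14.8 to 20.4 CPM. In whole lung, fewer cells of a type and less RNA per cell cannot be told apart.

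Promoter windows are shown for 5 members that differed between libraries, chosen after their values were seen, because AhR and NRF2 act through short elements near gene starts. Each is the 250 bases before the RefSeq start on GRCm38.p6, written 5′ to 3′ in the direction of the gene, and capitals mark an element found by its letters. The windows are chr1:88134559-88134808 on the plus strand for Ugt1a6a, chr5:87569007-87569256 on the minus strand for Sult1d1, chr9:78347146-78347395 on the minus strand for Gsta2, chr1:21240335-21240584 on the plus strand for Gsta3 and chr6:138140277-138140526 on the plus strand for Mgst1, at the more upstream of its RefSeq starts.
Ugt1a6a: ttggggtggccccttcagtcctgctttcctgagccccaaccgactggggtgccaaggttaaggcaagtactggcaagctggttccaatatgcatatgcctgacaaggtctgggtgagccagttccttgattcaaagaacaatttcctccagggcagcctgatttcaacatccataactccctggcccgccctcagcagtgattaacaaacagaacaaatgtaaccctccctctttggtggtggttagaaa
Sult1d1: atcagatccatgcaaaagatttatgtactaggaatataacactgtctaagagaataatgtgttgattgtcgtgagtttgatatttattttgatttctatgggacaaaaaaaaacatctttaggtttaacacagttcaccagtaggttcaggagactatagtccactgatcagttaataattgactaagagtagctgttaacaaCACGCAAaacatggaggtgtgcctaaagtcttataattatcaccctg
Gsta2: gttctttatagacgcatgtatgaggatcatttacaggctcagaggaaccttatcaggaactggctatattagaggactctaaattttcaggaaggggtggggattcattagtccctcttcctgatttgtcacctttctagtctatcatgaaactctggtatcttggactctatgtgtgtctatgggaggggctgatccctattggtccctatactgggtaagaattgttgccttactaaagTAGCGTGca
Gsta3: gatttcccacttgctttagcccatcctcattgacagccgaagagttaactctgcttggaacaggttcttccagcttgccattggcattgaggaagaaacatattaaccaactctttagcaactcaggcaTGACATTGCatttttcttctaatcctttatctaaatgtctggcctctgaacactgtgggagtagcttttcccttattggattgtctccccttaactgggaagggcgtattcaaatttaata
Mgst1: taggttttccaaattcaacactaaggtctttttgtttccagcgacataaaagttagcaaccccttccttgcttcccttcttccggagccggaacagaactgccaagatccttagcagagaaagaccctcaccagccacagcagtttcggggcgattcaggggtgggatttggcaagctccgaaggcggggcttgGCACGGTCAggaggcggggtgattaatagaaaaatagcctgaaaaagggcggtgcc

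The dioxin response element was searched on both strands as its core, GCGTG, and as the longer TNGCGTG, which contains the core. The antioxidant response element was searched as TGACNNNGC. RefSeq gave 73 windows for 61 members, and Ugt1a6b was not among these members. The core was in 12 of these windows (16.4%), against 28.2% of all 32851 windows. They belonged to 11 members, of which Gstm1, Gstm5, Gstp1, Gstp3, Mgst3, Sult1b1, Sult2b1 and Ugt1a8 held the core without the longer form. The longer form was in 3 windows (4.11%), those of Sult1d1, Gsta2 and Ugt1a5, against 4.10% of all windows. It lay 41 to 47 bases before the start on the minus strand of the Sult1d1 window, and 3 to 9 bases before the start of Gsta2. The antioxidant response element was in 4 windows (5.48%), those of Gsta3, Gstm5, Gstm7 and Mgst1, against 10.2% of all windows. It lay 113 to 121 bases before the start of Gsta3 and 48 to 56 bases before that of Mgst1, on the minus strand there. The windows of Ugt1a6a and Ugt1a7c, and the window at the other RefSeq start of Mgst1, held none of these letters. A match describes the letters of a window and not a bound site.

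Levels were compared between genes by the deposited TPM, which is also scaled for gene length. In normal WT lungs the members summed to 3469 TPM, and GSTs carried most of it. The mu class held 34.5% of the members' TPM, the alpha class 18.9%, the microsomal enzymes 15.1%, the omega, kappa and zeta group 11.6%, the pi class 10.4% and the theta class 6.58%. SULT1 genes held 1.77%, the other SULTs 0.755% and the UGT1A genes 0.281%. Gstm1 was the most abundant member in every library, at 766 and 507 TPM in WT and 996 and 866 TPM in Rab44-KO lungs. Mgst1 was next in every library, at 440 and 359 TPM in WT and 642 and 440 TPM in Rab44-KO lungs. In normal WT lungs Gstm2 (385 TPM), Gsta3 (361 TPM) and Gstp1 (347 TPM) followed. The members' summed level was highest in normal Rab44-KO lungs (4194 TPM) and lowest in OVA-induced WT lungs (2558 TPM), with OVA-induced Rab44-KO lungs at 3387 TPM. On the CPM scale WT lungs had sums of 1901 and 1569, and Rab44-KO lungs of 2289 and 1716. TPM moved the median log2FC of all genes to 0.29 for OVA-induced Rab44-KO over WT, and to -0.16 for OVA-induced over normal WT. The TPM sums of different libraries are therefore not on the same footing.

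**Figure D1:**
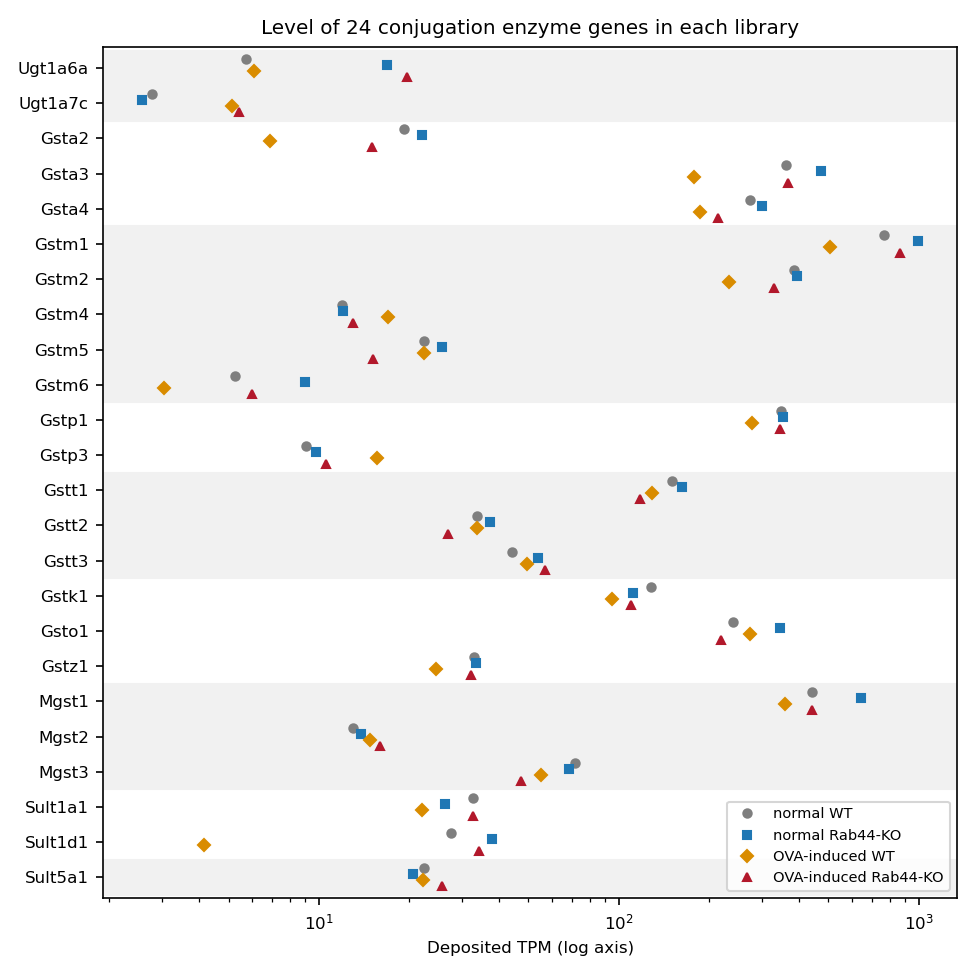
Deposited TPM (log axis) of the 24 members with at least 100 counts in their highest library. Each symbol is 1 library, shading alternates between enzyme classes, and Sult1d1 stands out with 4.13 TPM in OVA-induced WT lungs against 27.6 to 37.9 TPM in the other libraries.

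Under normal conditions, 34 members could be compared between Rab44-KO and WT lungs. There were 4 members over 2-fold higher in Rab44-KO (Ugt1a6a, Ugt1a6b, Gsta13 and Sult4a1) and 1 over 2-fold lower (Sult1e1), against 2.77% and 2.0% of all 18718 genes compared. The counting interval lay above 0 for 11 members and below 0 for 3, against 14.6% and 14.8% of all genes. The members' median log2FC was 0.11, beside 0.00 for all genes. Only Ugt1a6a of the 5 reached 100 counts, and Gsta13, Sult4a1 and Sult1e1 rested on 10, 10 and 11 counts in their higher library. The interval of Sult4a1 included 0 (log2FC 1.37, -0.40 to 3.52).

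After OVA induction, 31 members could be compared. Of these, 5 were over 2-fold higher in Rab44-KO lungs (Ugt1a6a, Ugt1a6b, Sult1d1, Gstp2 and Gstm3) and 2 were over 2-fold lower (Sult4a1 and Sult2b1). Among all 19259 genes compared, 8.4% were over 2-fold higher and 7.34% were lower by as much. The counting interval was above 0 for 11 members and below 0 for 10, against 29.7% and 33.8% of all genes, and the members' median log2FC was -0.11, beside -0.02 for all genes. On TPM, and again with the trend along gene length removed, 7 members were over 2-fold higher and 1 lower. The shares of all genes higher and lower were then 13.5% and 4.03% on TPM, which moved the median of all genes to 0.29, and 9.02% and 5.73% with the length trend removed. In 6 members the interval was above 0 under both conditions (Ugt1a6a, Ugt1a6b, Sult1d1, Gsta3, Gstm1 and Gstm6), and in 0 members was it below 0 under both, against 7.29% and 8.19% of the 18233 genes compared in both conditions.

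**Figure D2:**
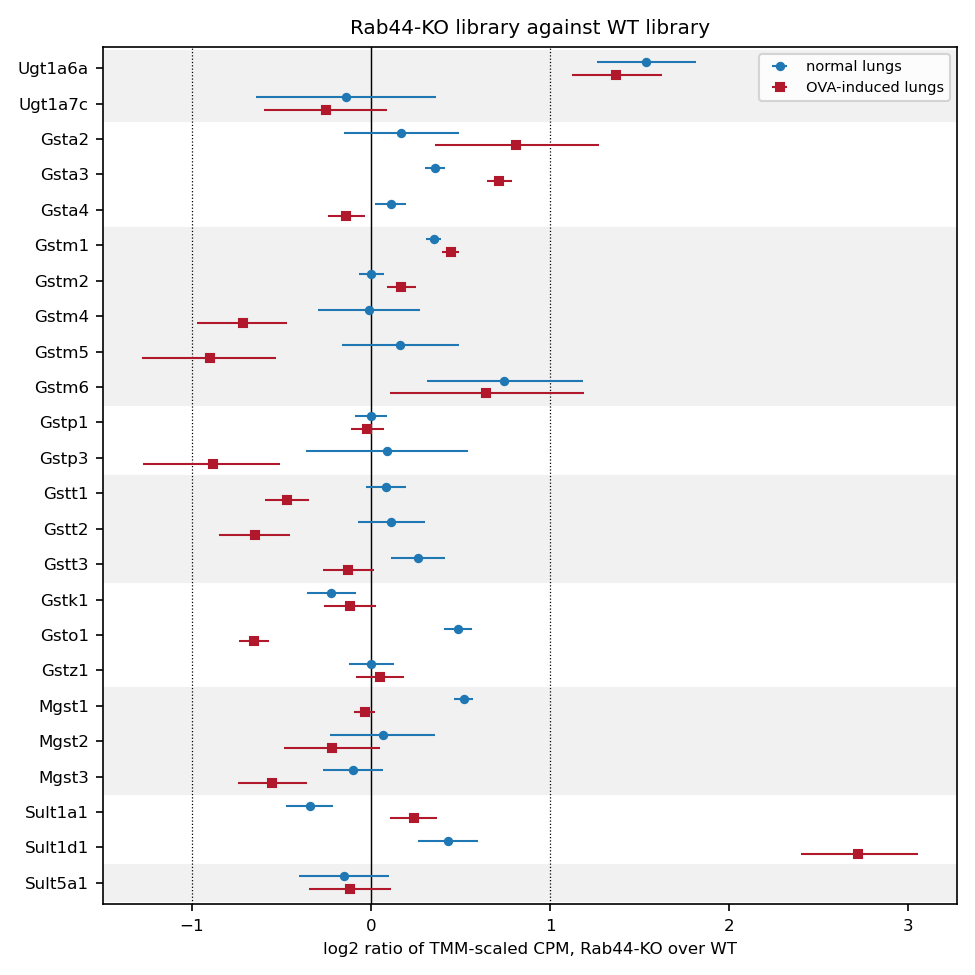
The log2FC of the Rab44-KO over the WT library for the 24 members with at least 100 counts, in normal (circles) and OVA-induced lungs (squares). Bars are 95% counting intervals and dotted lines mark 2-fold. Ugt1a6a lies beyond 2-fold in both conditions, and Sult1d1 reaches 2.72 in OVA-induced lungs.

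Most of the abundant conjugation enzyme genes are short, and short genes differed from long ones in these libraries. The median length of the 24 members with at least 100 counts lay at percentile 12.4 in the OVA-induced libraries, where genes of at least 100 counts were ranked. Relative to a median gene of 1, Ugt1a6a and Ugt1a7c were longer at 1.08, Gstz1 at 1.32 and Sult1a1 at 1.40. Across 13704 such genes, the log2FC of OVA-induced Rab44-KO over WT correlated with gene length (Spearman's rho 0.55), with a median of -0.50 in the shortest quintile of genes and 0.38 in the longest. The genes share both libraries, so this is a description with no test. Under normal conditions rho was 0.22, while for OVA-induced over normal it was -0.36 in WT and 0.29 in Rab44-KO, so short genes moved up in one and down in the other. When a running median along length was subtracted, the members' median in OVA-induced lungs moved from -0.11 to 0.25, with the interval above 0 for 16 members and below 0 for 7, against 28.6% and 29.7% of all genes after the same step. Where this took a printed log2FC of a member, in any of the 4 comparisons, out of its counting interval or across 2-fold, the value with the length trend removed is given as well.

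**Figure D3:**
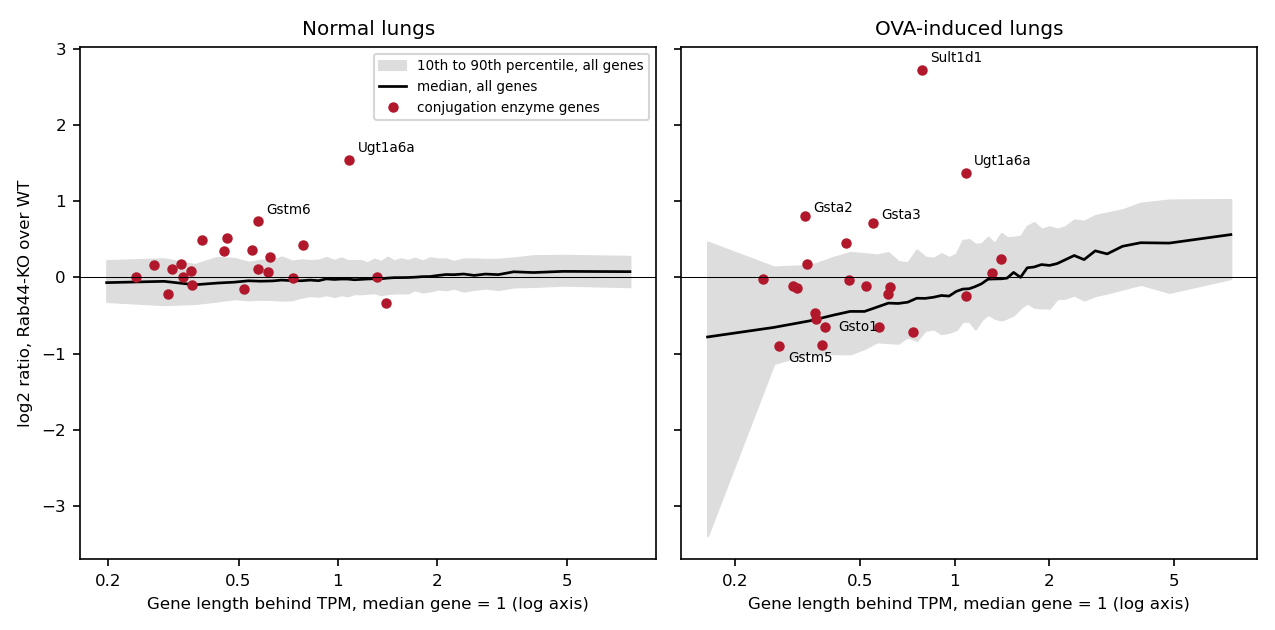
The log2FC of Rab44-KO over WT against gene length relative to the median gene (log axis), in normal and OVA-induced lungs. The line and band give the median and the 10th to 90th percentiles in 40 equal groups of genes with at least 100 counts, and points are the members; in OVA-induced lungs the line climbs with length (rho 0.55), with Ugt1a6a, Sult1d1, Gsta2 and Gsta3 among the points above the band.

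The UGT1A genes share 1 locus on chromosome 1 (GRCm38), where each gene has its own first exon and all use the same downstream exons. Ugt1a6a (88134809 to 88218997, plus strand), which encodes an enzyme for small phenols, had 152 and 184 counts in WT lungs, and 419 and 479 in Rab44-KO lungs. Both Rab44-KO libraries were above both WT libraries. Rab44-KO over WT was 2.90-fold in normal lungs (log2FC 1.54, 1.27 to 1.81) and 2.58-fold in OVA-induced lungs (log2FC 1.37, 1.12 to 1.62). In normal lungs this was the 14th highest log2FC among 13166 genes with at least 100 counts, and in OVA-induced lungs it ranked 192 of 13704. OVA-induced over normal was 0.26 (-0.05 to 0.58) in WT and 0.10 (-0.09 to 0.29) in Rab44-KO lungs, so both intervals included 0.

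Ugt1a6b (88103252 to 88219003), the near copy of Ugt1a6a, had fewer counts and the same order between genotypes. It had 22 and 5 counts in WT lungs, and 81 and 43 in Rab44-KO lungs. The Rab44-KO over WT log2FC was 1.95 (1.26 to 2.70) in normal and 3.06 (1.76 to 4.79) in OVA-induced lungs. Unlike Ugt1a6a, it was lower after OVA in both genotypes, by a log2FC of -2.12 (-3.91 to -0.71) in WT and -1.01 (-1.58 to -0.46) in Rab44-KO lungs, where the value was -0.94 (-1.51 to -0.39) and so under 2-fold with the length trend removed. The first exons of these genes are 96.3% identical over 938 aligned bases, and 136 of 805 windows of 150 bases in that of Ugt1a6a occur in that of Ugt1a6b. Reads from one can therefore be counted for the other.

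Ugt1a7c (88095062 to 88220002) differed with OVA, while both of its genotype intervals included 0. It had 74 and 156 counts in WT lungs, and 64 and 132 in Rab44-KO lungs. OVA-induced over normal was 1.06 (0.66 to 1.48) in WT and 0.95 (0.51 to 1.40) in Rab44-KO lungs, whereas Rab44-KO over WT was -0.14 (-0.64 to 0.37) and -0.25 (-0.60 to 0.09) in normal and OVA-induced lungs. Its first exon shares 0 of the 805 windows of Ugt1a6a. Ugt1a1, whose enzyme clears bilirubin, had 0 and 0 counts in WT and 8 and 4 in Rab44-KO lungs, so it was seen in the Rab44-KO libraries alone but under the count minimum. Ugt1a2 had 2 or 3 counts and Ugt1a5 0 to 3 in a library, while Ugt1a8, Ugt1a9 and Ugt1a10 had 0 everywhere. Between 39.4% and 49.7% of a UGT1A gene's exonic bases lie in no other gene of the locus. Since 3 genes at this locus had 0 counts while Ugt1a6a had up to 479, reads in the shared exons were not counted for every gene, and the TPM of a UGT1A gene, which uses 1 length per gene, may not be on the same footing as that of other members. None of the 12 UGT2A, UGT2B and UGT3A genes had 10 counts in a library, and 7 of them had 0 in all 4.

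The alpha class encodes GSTs that act on organic peroxides and reactive aldehydes. Gsta3 (chromosome 1, 21240589 to 21265661), whose window holds an antioxidant response element, had 4867 and 2732 counts in WT lungs, and 5928 and 4521 in Rab44-KO lungs. Each Rab44-KO library was above the WT library of its condition, and OVA-induced WT was lowest. Rab44-KO over WT was 1.28-fold in normal (log2FC 0.36, 0.30 to 0.41) and 1.64-fold in OVA-induced lungs (log2FC 0.72, 0.65 to 0.79), where it passed 2-fold at 1.07 (0.996 to 1.13) with the length trend removed. OVA-induced over normal was -0.85 (-0.91 to -0.78) in WT and -0.49 (-0.54 to -0.43) in Rab44-KO lungs, or -0.96 and -0.35 with the length trend removed.

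Gsta2 (chromosome 9, 78331018 to 78355788), whose window holds the longer dioxin response element, had 158 and 64 counts in WT and 169 and 113 in Rab44-KO lungs. OVA-induced WT was again lowest. The Rab44-KO over WT log2FC was 0.17 (-0.15 to 0.49) in normal and 0.81 (0.36 to 1.28) in OVA-induced lungs, which became 1.26 (0.81 to 1.73) without the length trend. OVA-induced over normal was -1.31 (-1.76 to -0.89) in WT and -0.68 (-1.03 to -0.32) in Rab44-KO lungs. Gsta4, whose enzyme favours the lipid peroxidation product hydroxynonenal, had 2117 and 1648 counts in WT and 2174 and 1510 in Rab44-KO lungs. It was lower in both OVA-induced libraries, with log2FC -0.37 (-0.47 to -0.28) in WT and -0.62 (-0.72 to -0.53) in Rab44-KO lungs, but the order of the genotypes turned, to -0.56 and -0.41, with the length trend removed. Its genotype values were small and of opposite sign, 0.11 (0.02 to 0.20) in normal and -0.14 (-0.24 to -0.03) in OVA-induced lungs, and the latter was 0.29 (0.19 to 0.39) with the length trend removed and 0.19 on TPM.

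Among the low members of the alpha class, Gsta1 had 11 and 0 counts in WT and 14 and 3 in Rab44-KO lungs. OVA-induced WT was 3.70-fold lower than normal WT with its 0 set at 3 counts, and the counting interval lay wholly below a log2FC of -1.34. In Rab44-KO lungs the OVA-induced to normal ratio of Gsta1 was 0.037 to 0.719 by its counting interval. Gsta13 had 1 and 0 counts in WT and 10 and 2 in Rab44-KO lungs, with a Rab44-KO to WT ratio between 1.5 and 457 in normal lungs. Gsta5 stayed under 10 counts. Of the 150-base windows in their transcripts, 68.4% for Gsta1 and 77.7% for Gsta13 occur in another gene, against 22.7% for Gsta5 and 19.6% for Gsta2, so the split of reads among these genes is uncertain.

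The 7 mu class genes lie in a cluster on chromosome 3 between 107895821 and 108044894, and neighbours in it differed in different ways. Gstm1, the most abundant member, had 8493 and 6396 counts in WT lungs, and 10298 and 8768 in Rab44-KO lungs. Rab44-KO over WT was 1.28-fold (log2FC 0.35, 0.31 to 0.39, or 0.41 with the length trend removed) in normal and 1.36-fold (log2FC 0.45, 0.40 to 0.49) in OVA-induced lungs, or 0.79 (0.74 to 0.83) on the log2 scale with the length trend removed. Gstm6 had 74 and 49 counts in WT and 118 and 77 in Rab44-KO lungs, and its log2FC was 0.75 (0.32 to 1.19) in normal and 0.64 (0.11 to 1.19) in OVA-induced lungs. For both genes each Rab44-KO library was above its WT library, and OVA-induced WT was lowest.

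Gstm2 had 3206 and 2202 counts in WT and 3055 and 2496 in Rab44-KO lungs. It was lower in both OVA-induced libraries, by log2FC -0.55 (-0.63 to -0.48) in WT and -0.39 (-0.46 to -0.31) in Rab44-KO lungs, or by -0.76 and -0.19 with the length trend removed. Its OVA-induced Rab44-KO over WT value was 0.17 (0.09 to 0.25), or 0.65 (0.57 to 0.74) with the length trend removed. Gstm4 went the other way in WT lungs, with 215 and 349 counts there and 203 and 214 in Rab44-KO lungs. Only OVA-induced WT stood apart for Gstm4, 0.69 (0.44 to 0.94) above normal WT on the log2 scale, and OVA-induced Rab44-KO over WT was -0.71 (-0.97 to -0.47), or -0.46 (-0.71 to -0.21) with the length trend removed. Gstm5, whose window holds the antioxidant response element and the dioxin core, had 153 and 174 counts in WT and 163 and 94 in Rab44-KO lungs, with OVA-induced Rab44-KO lowest. Its log2FC there was -0.90 (-1.28 to -0.53) against OVA-induced WT, or -0.39 (-0.76 to -0.02) with the length trend removed, and -0.89 (-1.27 to -0.51) against normal Rab44-KO. Gstm3 had 11 and 9 counts in WT and 15 and 27 in Rab44-KO lungs, and its log2FC of 1.56 (0.44 to 2.85) in OVA-induced lungs rests on these few counts. Gstm7 stayed between 64 and 80 counts.

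The pi class has 3 genes on chromosome 19. Gstp1 differed little in counts between libraries, with 2083 and 1906 counts in WT lungs and 1978 and 1892 in Rab44-KO lungs, and a log2FC of Rab44-KO over WT of 0.00 (-0.09 to 0.09) and -0.02 (-0.11 to 0.07). In OVA-induced lungs the value was 0.50 (0.41 to 0.59) with the length trend removed, since Gstp1 is among the shortest members. Gstp2 had 34 and 7 counts in WT and 35 and 30 in Rab44-KO lungs, so OVA-induced WT alone was low. Its log2FC was 2.07 (0.87 to 3.52) for OVA-induced Rab44-KO over WT and -2.27 (-3.71 to -1.10) for OVA-induced over normal WT. Of its 150-base windows, 35.7% occur in another gene, Gstp1 among them. Gstp3 had 84 and 165 counts in WT and 85 and 90 in Rab44-KO lungs, and OVA-induced WT alone was high, 0.96 (0.57 to 1.36) above normal WT on the log2 scale. Against it OVA-induced Rab44-KO was -0.88 (-1.27 to -0.50), or -0.43 (-0.82 to -0.06) with the length trend removed.

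Among the theta genes, which sit together on chromosome 10, Gstt1 had 1320 and 1296 counts in WT and 1329 and 943 in Rab44-KO lungs. Gstt2 had 474 and 540 counts in WT and 488 and 347 in Rab44-KO lungs. For both, OVA-induced Rab44-KO alone was low, at -0.47 (-0.59 to -0.35) for Gstt1 and -0.65 (-0.85 to -0.45) for Gstt2 against OVA-induced WT. With the length trend removed these were -0.01 (-0.13 to 0.12) and -0.33 (-0.53 to -0.13). Gstt3 had 676 and 858 counts in WT and 770 and 792 in Rab44-KO lungs, with log2FC 0.26 (0.11 to 0.41) and -0.13 (-0.27 to 0.02) for Rab44-KO over WT in normal and OVA-induced lungs, the latter being 0.13 (-0.01 to 0.27) with the length trend removed. Gstt4 had at most 2 counts.

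Gsto1, an omega class enzyme that reduces dehydroascorbate and thiols, showed opposite genotype values in the conditions. It had 2295 and 2977 counts in WT lungs, and 3055 and 1908 in Rab44-KO lungs. The normal Rab44-KO and OVA-induced WT libraries were high and the remaining pair low. Rab44-KO over WT was 0.49 (0.41 to 0.56) in normal and -0.65 (-0.74 to -0.57) in OVA-induced lungs, where it was -0.21 (-0.29 to -0.13) with the length trend removed. Gstk1, the kappa class enzyme of mitochondria and peroxisomes, had 960 and 810 counts in WT and 783 and 753 in Rab44-KO lungs, with normal WT highest and a log2FC of -0.22 (-0.36 to -0.08) in normal lungs. In OVA-induced lungs Gstk1 was at -0.11 (-0.26 to 0.03), or at 0.31 (0.17 to 0.46) with the length trend removed. Gstz1, which isomerizes maleylacetoacetate in tyrosine breakdown, had 1060 and 908 counts in WT and 1010 and 947 in Rab44-KO lungs, and both genotype intervals included 0. Gsto2 had 27 to 33 counts.

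Mgst1 encodes a membrane-bound GST with peroxidase activity, and the more upstream of its windows holds an antioxidant response element. It had 4994 and 4645 counts in WT lungs, and 6803 and 4567 in Rab44-KO lungs. Normal Rab44-KO alone was high. Rab44-KO over WT was 1.43-fold (log2FC 0.52, 0.47 to 0.57) in normal lungs and -0.03 (-0.09 to 0.03) on the log2 scale in OVA-induced lungs, or 0.32 (0.26 to 0.37) with the length trend removed. Mgst3 had 634 and 554 counts in WT and 563 and 381 in Rab44-KO lungs, with a log2FC of -0.55 (-0.74 to -0.36) in OVA-induced lungs that became -0.09 (-0.28 to 0.10) without the length trend. Mgst2 had 196 and 254 counts in WT and 195 and 220 in Rab44-KO lungs and both of its genotype intervals included 0. Mgst2 and Mgst3 encode enzymes that can join glutathione to leukotrienes.

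Sult1d1 (chromosome 5, 87554645 to 87569027, minus strand), a sulfotransferase that acts on catecholamines and whose window holds the longer dioxin response element, had the widest range of the abundant members. It had 533 and 91 counts in WT lungs, and 683 and 604 in Rab44-KO lungs. OVA-induced WT alone was low. It was 5.90-fold lower than normal WT (log2FC -2.56, -2.90 to -2.24), the 5th lowest of 13575 genes with at least 100 counts. OVA-induced Rab44-KO was 6.59-fold above OVA-induced WT (log2FC 2.72, 2.40 to 3.06), the 13th highest of 13704 genes. Against these, normal Rab44-KO over WT was 0.43 (0.27 to 0.60), and OVA-induced over normal was -0.27 (-0.43 to -0.11) in Rab44-KO lungs. The 6 club cell markers summed to 27627 and 19184 CPM in WT and 28285 and 22582 CPM in Rab44-KO lungs, so they were lowest in the same library, with a median log2FC of -0.62 for OVA-induced over normal WT and 0.46 for OVA-induced Rab44-KO over WT. The 6 heart muscle markers were lowest there too, at 305 CPM against 678 to 753 CPM in the other libraries, with medians of -1.28 and 1.05. The 6 goblet cell markers summed to 70.6 and 2070 CPM in WT and 76.4 and 66.7 CPM in Rab44-KO lungs. The part of any of these cell types in the values of Sult1d1, Gsta2, Gsta3, Gstp2 or Gstm1 was not tested.

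Sult1a1, the main phenol sulfotransferase, had 1128 and 865 counts in WT lungs, and 846 and 1028 in Rab44-KO lungs. The genotype values were opposite in sign, -0.34 (-0.47 to -0.21) in normal and 0.24 (0.11 to 0.37) in OVA-induced lungs. Sult5a1 had 286 and 323 counts in WT and 245 and 300 in Rab44-KO lungs, and both genotype intervals included 0, although the OVA-induced value of -0.12 became 0.23 (0.0024 to 0.47) with the length trend removed. Sult2b1, which sulfates cholesterol, had 49 and 67 counts in WT and 49 and 31 in Rab44-KO lungs, with a log2FC of -1.12 (-1.79 to -0.49) in OVA-induced lungs, or -0.84 (-1.50 to -0.21) with the length trend removed. Sult4a1, best known from brain, had 4 and 23 counts in WT and 10 and 7 in Rab44-KO lungs, so OVA-induced WT was highest, and its over 2-fold values rest on these counts. Sult1e1, the oestrogen sulfotransferase, had 11 and 1 counts in WT and 2 and 1 in Rab44-KO lungs, with a Rab44-KO to WT ratio of 0.0206 to 0.876 in normal lungs by its counting interval. Sult2a1, Sult2a2 and Sult6b1 reached at most 9, 5 and 6 counts, and 8 of the 21 SULT genes had 0 in all 4 libraries.

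In the comparison of OVA-induced with normal lungs, lower values prevailed in both genotypes. In WT lungs 33 members could be compared, of which 6 were over 2-fold lower (Gsta1, Gsta2, Gstp2, Sult1d1, Sult1e1 and Ugt1a6b) and 2 higher (Ugt1a7c and Sult4a1), against 5.2% and 8.99% of all 19023 genes compared. On TPM the split was 7 lower and 1 higher, against 5.79% and 6.69% of all genes. The interval was below 0 for 17 members and above 0 for 7, against 27.4% and 29.2% of all genes, and the median was -0.14 beside 0.00 for all genes. In Rab44-KO lungs, 3 of 33 members were over 2-fold lower (Gsta1, Gsta13 and Ugt1a6b) and 0 higher, against 3.85% and 6.44% of 19073 genes, and on TPM 2 were lower and 1 higher, against 2.52% and 6.75%. The interval was below 0 for 20 members and above 0 for 2 (Ugt1a7c and Sult1a1), against 26.6% and 25.4% of all genes, with a median of -0.33 beside -0.01. With the length trend removed Ugt1a6b was no longer over 2-fold lower in Rab44-KO lungs, and WT lungs had a median of -0.24 and Rab44-KO lungs of -0.19. All 4 comparisons are made from the same 4 libraries, so they are not independent of each other.

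**Figure D4:**
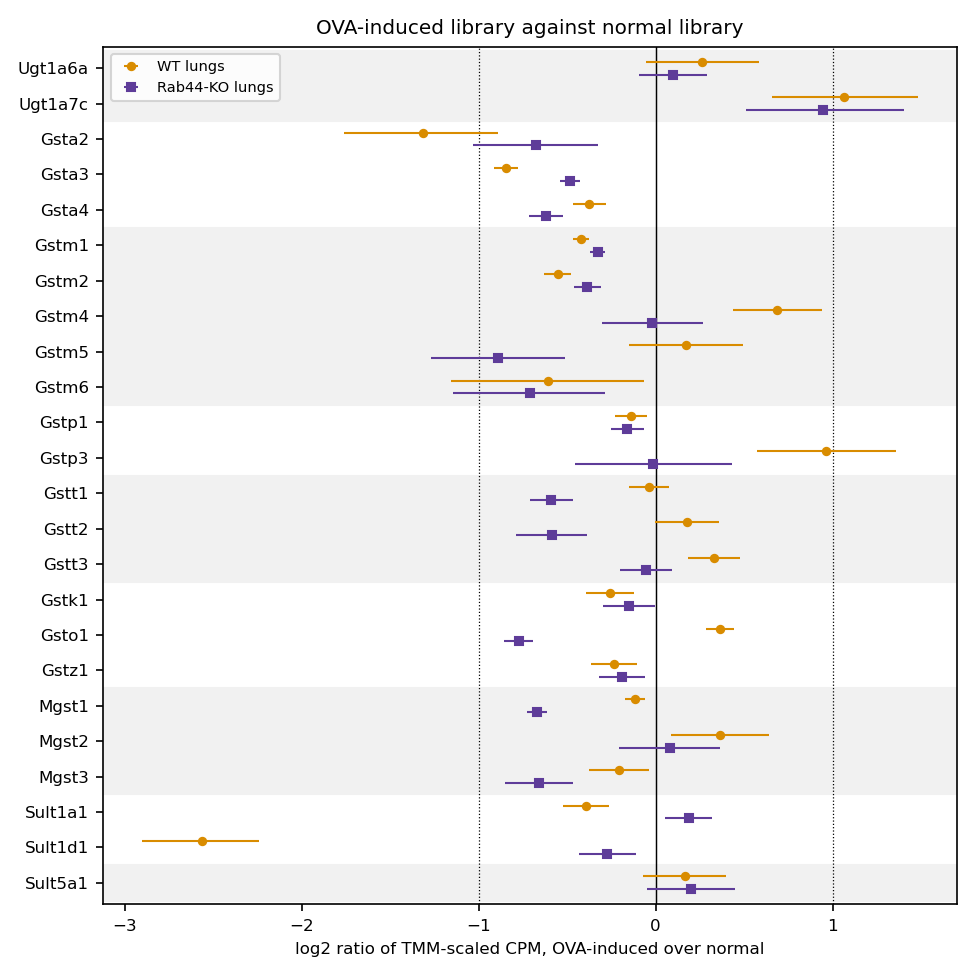
The log2FC of the OVA-induced over the normal library for the 24 members with at least 100 counts, in WT (circles) and Rab44-KO lungs (squares). Bars are 95% counting intervals and dotted lines mark 2-fold. Ugt1a7c lies near 1 in both genotypes, Sult1d1 lies at -2.56 for WT against -0.27 for Rab44-KO, and Gsto1 lies on opposite sides of 0.

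The supply, regulation and export genes around these enzymes were counted from a list of 70 names, of which 69 were found. Of these, 63 could be compared between genotypes in normal lungs, with 6 over 2-fold higher in Rab44-KO (Cyp1a1, Nqo1, Aldh3a1, Slc7a11, Ggt1 and Ahrr) and 1 lower (Nr1i2), against 2.77% and 2.0% of all genes. Ahrr had only 8 and 2 counts in WT and 16 and 10 in Rab44-KO lungs. Its log2FC in normal lungs was 1.06 (-0.24 to 2.51), so the interval included 0. In OVA-induced lungs 64 could be compared, with 5 higher (Cyp1a1, Nqo1, Aldh3a1, Ahrr and Slc26a2) and 4 lower (Slc7a11, Nnmt, Hpgds and Hmox1), against 8.4% and 7.34% of all genes, so these counts lay near the background. The pathway counts were not repeated on TPM or with the length trend removed. From OVA-induced WT to Rab44-KO, TPM fell by less than 2-fold for Slc7a11 (3.19 to 1.78), Nnmt (6.06 to 3.76) and Hmox1 (81.2 to 44.1). Hpgds was near 2-fold lower (3.59 to 1.77), and Abcc3 passed 2-fold higher (20.8 to 51.0). The 8 readout genes of AhR and NRF2 had intervals above 0 for 8 in normal lungs and for 7 in OVA-induced lungs, against 14.6% and 29.7% of all genes. Their median log2FC was 0.71 and 0.64, beside 0.00 and -0.02 for all genes. The readout list was chosen with earlier results of these data known, so its values are a description. AhR or NRF2 activity was not tested. In WT lungs OVA-induced over normal gave 5 of 63 higher and 2 lower, against 8.99% and 5.2% of all genes, and in Rab44-KO lungs 0 of 64 higher and 5 lower, against 6.44% and 3.85%.

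Cyp1a1, the oxidase that is the classical AhR target, had 67 and 30 counts in WT lungs, and 3418 and 212 in Rab44-KO lungs. Like Ugt1a6a and Ugt1a6b it was higher in both Rab44-KO libraries, by log2FC 5.74 (5.40 to 6.12) and 2.81 (2.26 to 3.41). Among Rab44-KO lungs it was 17.2-fold lower after OVA induction, whereas Ugt1a6a had a log2FC of 0.10 there (-0.09 to 0.29). Nqo1, a quinone reductase under AhR and NRF2, had 179 and 95 counts in WT and 523 and 203 in Rab44-KO lungs, with log2FC 1.62 (1.37 to 1.87) and 1.08 (0.73 to 1.45) in normal and OVA-induced lungs. Aldh3a1, an aldehyde dehydrogenase, had 278 and 289 counts in WT and 586 and 777 in Rab44-KO lungs, and both Rab44-KO libraries were again above both WT libraries.

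Among the genes that supply the conjugated groups, values ranged widely. Ugdh, which makes UDP-glucuronic acid, had 901 and 892 counts in WT and 955 and 914 in Rab44-KO lungs. Gclc and Gclm, the subunits of the enzyme that limits glutathione synthesis, had log2FC of Rab44-KO over WT of 0.38 (0.31 to 0.44) and 0.49 (0.34 to 0.63) in normal lungs, and of 0.23 (0.18 to 0.28) and 0.49 (0.33 to 0.66) in OVA-induced lungs. Slc7a11, the cystine carrier for glutathione synthesis, had 43 and 275 counts in WT and 182 and 123 in Rab44-KO lungs and so differed in opposite directions, by 2.15 (1.67 to 2.67) in normal and -1.17 (-1.49 to -0.86) in OVA-induced lungs. Ggt1, which cleaves extracellular glutathione, had 42 and 43 counts in WT and 101 and 60 in Rab44-KO lungs, and normal Rab44-KO was highest. Papss2, which makes PAPS, had 857 and 538 counts in WT and 781 and 822 in Rab44-KO lungs, with OVA-induced WT lowest as for Sult1d1, and a log2FC of 0.60 (0.44 to 0.76) for OVA-induced Rab44-KO over WT. The sulfate carrier Slc26a2 had 368 and 215 counts in WT and 427 and 468 in Rab44-KO lungs, also lowest in OVA-induced WT.

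The other named genes of the list differed in several ways. Hpgds, the prostaglandin D synthase of blood cells and a sigma class GST, had 55 and 141 counts in WT and 55 and 56 in Rab44-KO lungs, and Hmox1, a haem oxygenase, had 460 and 1177 in WT and 581 and 513 in Rab44-KO lungs. Both were highest in OVA-induced WT lungs, where 6 eosinophil and 6 type 2 macrophage markers summed to 65.6 and 7673 CPM, respectively, against 18.6 to 22.7 and 377 to 991 CPM elsewhere. The part of these cells in the values of Hpgds, Hmox1, Gstm4 or Gstp3 was not tested. Gsr, glutathione reductase, had 1255 and 2574 counts in WT and 1404 and 2259 in Rab44-KO lungs and was higher in both OVA-induced libraries, as was Ggt5 with 158 and 347 counts in WT and 168 and 286 in Rab44-KO lungs. The methyltransferase gene Nnmt had 209 and 209 counts in WT and 141 and 104 in Rab44-KO lungs, and each Rab44-KO library was below its WT library.

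**Figure D5:**
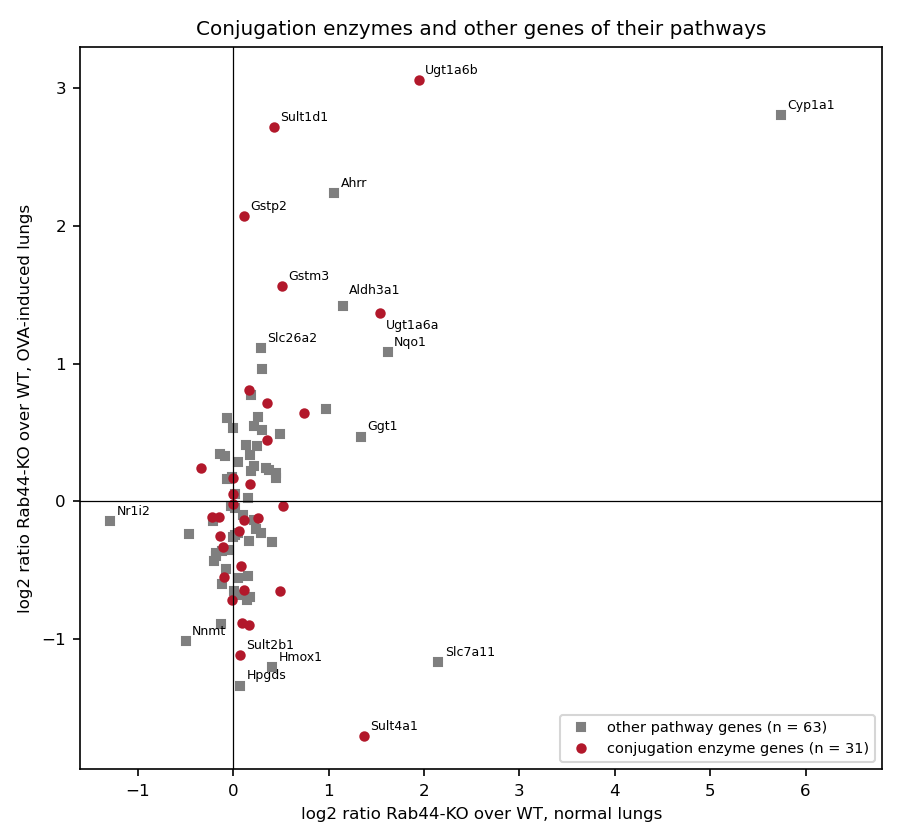
The log2FC of Rab44-KO over WT in normal (x axis) and OVA-induced lungs (y axis) for 31 members (circles) and 63 other genes of their pathways (squares), each past the count minimum of 10 in both comparisons. Genes beyond 2-fold in either are named. Ugt1a6a and Ugt1a6b lie at the upper right with Nqo1, Aldh3a1, Cyp1a1 and Ahrr, the last with at most 16 counts in a library. Sult1d1 and Gstp2 lie high near the vertical axis.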

How the data were processed

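Lung RNA was sequenced in 4 libraries, 1 per group, from 150-bp paired-end reads of a directional library kit. The authors trimmed the reads and used HISAT2 for alignment to GRCm38 and featureCounts for gene counts. The deposited counts are whole and not normalized. The deposited TPM are these counts scaled by 1 length per gene. Tool versions, strand settings and the handling of reads with several matches are not given in the sources used here. DESeq2 is named for the authors' own comparisons, whose values were not used.

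Counts were scaled by TMM over the 4 libraries (factors 0.973 to 1.02) in edgeR 4.0.16, with R 4.3.3, Python 3.11.15, numpy 2.4.6, pandas 2.3.3, scipy 1.17.1 and matplotlib 3.10.9. A prior count of 0.125, scaled by library size, was added for the log2FC, and a 0 was set at 3 counts where a fold is given for it. No p-value was computed, since 1 library per group leaves no spread to test against. All ratios were computed over the whole table, and steps were tested on simulated counts. Members with at least 100 counts in their highest library were named with values, as were lower members beyond 2-fold, UGT1A genes, and pathway genes with at least 100 counts beyond 2-fold. Ugdh, Papss2, Gclc, Gclm, Slc7a11, Cyp1a1 and Nqo1 were named whatever their values. Members and gene lists were chosen with earlier results of these data known.

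Positions are from GENCODE M21 on GRCm38, matched by Ensembl identifier for 69 of 69 members, since positions in the deposited table differ from that build. In the table the identifiers of Ugt3a1 and Ugt3a2 carry each other's symbol, and both are at 0 in every library. Shared sequence was counted in windows of 150 bases of GENCODE M21 transcripts, and promoter windows are from RefSeq on GRCm38.p6. Identity between member proteins was not analysed here. Alternatives were a prior count of 2, scaling by total counts only, by DESeq2 1.42.0 size factors or by TMM on just the compared pair, TPM with a pseudocount of 0.1, count minimums of 1 and 50, counts thinned to the smallest library, removal of a running median along gene length over 501 genes, and intervals wholly beyond 2-fold.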

Additional observations from a re-analysis of the deposited data

Results flagged for a closer look

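In 3 of 31 members the Rab44-KO over WT difference had opposite signs in normal and OVA-induced lungs, with both counting intervals clear of 0, against 6.61% of the 18233 genes compared in both conditions. The difference between the conditions was not tested, since each rests on 1 library per group. For Gsto1 the log2FC was 0.49 in normal and -0.65 in OVA-induced lungs, and the latter kept its sign with the length trend removed. For Sult1a1 it was -0.34 in normal and 0.24 in OVA-induced lungs, or 0.25 in the latter with the length trend removed. For Gsta4 it was 0.11 in normal and -0.14 in OVA-induced lungs, but the latter was 0.29 with the length trend removed, so the opposite signs of Gsta4 depend on that choice.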

How the results depend on the processing

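The counts of members over 2-fold rest partly on low counts. Shares in parentheses are of all genes called higher and lower in the same way. In genotype comparisons, a count minimum of 1 gave 9 higher and 2 lower in normal (11.7% and 9.65%) and 13 higher and 9 lower in OVA-induced lungs (16.5% and 13.3%). A minimum of 50 gave 2 higher and 0 lower in normal (0.505% and 0.175%) and 2 higher and 1 lower in OVA-induced lungs (4.9% and 5.14%). Intervals wholly beyond 2-fold left 2 higher and 0 lower in normal (0.272% and 0.102%) and 3 higher and 0 lower in OVA-induced lungs (2.14% and 2.76%). For OVA-induced over normal, a minimum of 1 gave 7 higher and 9 lower in WT (16.0% and 12.6%), and 3 higher and 10 lower in Rab44-KO lungs (14.8% and 11.8%). A minimum of 50 gave 1 higher and 2 lower in WT (6.51% and 2.38%) and 0 higher and 1 lower in Rab44-KO lungs (3.15% and 1.88%). Whole intervals left 0 higher and 3 lower in WT (4.28% and 1.05%) and 0 in either direction in Rab44-KO lungs (1.91% and 0.771%). On TPM, OVA-induced Rab44-KO over WT had 1 lower, and OVA-induced over normal had 1 higher in either genotype. With the length trend removed, OVA-induced Rab44-KO over WT had 1 lower and a median of 0.25. TPM moved the median of all genes to 0.29 in that comparison, to -0.16 for OVA-induced over normal WT and to 0.11 in Rab44-KO lungs, and the members' median of 0.21 in OVA-induced Rab44-KO over WT is relative to that shift. The cause of these shifts was not tested. Of 791 values of single members under an alternative, 714 stayed within their counting interval and 77 did not, 39 on TPM, 36 with the length trend removed and 2 with total counts only, and 0 of the values beyond 2-fold changed sign. Among members whose interval excluded 0, Gsta4 changed sign as given above, and Gstk1 and Gstp1 went to 0.06 and 0.05 with the length trend removed for OVA-induced over normal Rab44-KO lungs. No paired analysis was possible because each group has 1 library, and for the same reason no library could be left out.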

Other observations

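Other cell type markers of the libraries are given here as values with no test. The 4 mesothelial markers summed to 58.0 and 165 CPM in WT and 123 and 158 CPM in Rab44-KO lungs (normal, then OVA-induced). The 6 markers of salivary gland and upper airway summed to 292 and 176 CPM in WT and 432 and 197 CPM in Rab44-KO lungs, with 1 of them at 0 in each library, and 4 oesophagus markers stayed under 2 CPM in sum. Neutrophil markers summed to 76.2 and 453 CPM in WT and 97.9 and 546 CPM in Rab44-KO lungs, T cell markers to 40.7 and 96.6 CPM in WT and 47.8 and 48.0 CPM in Rab44-KO lungs, and B and plasma cell markers to 417 and 1374 CPM in WT and 374 and 629 CPM in Rab44-KO lungs. Alveolar macrophage markers summed to 208 and 432 CPM in WT and 221 and 236 CPM in Rab44-KO lungs. The ciliated (549 to 692 CPM), alveolar type 1 (3246 to 4694 CPM), capillary (2292 to 2776 CPM), fibroblast (1533 to 1952 CPM), smooth muscle (916 to 1058 CPM) and red blood cell lists (1436 to 1818 CPM) varied less.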
